A study of Mus musculus with 10 samples.

Results

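Portal rim hepatocytes were taken here as the liver cells at the far periportal end of a score built from 16 landmark genes, and 2292 of the 18378 deposited cells belonged to them. In each library, UMIs (counted molecules) of a cell were scaled to 10000, put on the ln(1 + value) scale and turned into z-scores. The score was the mean z of 8 periportal landmarks (the urea cycle genes Ass1 and Asl, then Ctsc, Cyp2f2, Ftcd, Hal, Hsd17b13, Pigr) minus the mean z of 8 pericentral ones (Aldh1a1, Cyp1a2, Cyp2e1, Gulo, Lect2, Mgst1, Oat, Rgn). Rim cells were selected on this score, as the top 12.5% of each library, so the landmark UMIs chose the members. They were set against the 3829 adjacent periportal cells, which ranked from 66.7% to 87.5%. The cells came from the livers of C57BL/6 male mice of 3 months on regular chow, freed with collagenase, purified on a Percoll gradient and sequenced with the 10x Chromium 3' kit, version 2. The animals carried no transgene or other treatment in the labels beyond the ketamine and xylazine given before perfusion. ZT0 and ZT12 had 3 libraries each and ZT6 and ZT18 had 2 each, named by time and letter (ZT0A). Zeitgeber time (ZT) counts hours of the light-dark cycle, with ZT0 by convention at lights on. The number of mice behind a library is not given in the labels, so p-values compare libraries and not mice. They and the SE of fitted differences rest on a variance partly shared across genes, not only on a gene's own spread between libraries.

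Blood enters the liver lobule at the portal triad, where a branch of the portal vein, an artery and a bile duct run together, and leaves by the central vein. Hepatocytes next to the triad receive the most oxygen and nutrients and are known for gluconeogenesis, urea formation and the breakdown of amino acids, while those near the central vein, which receive Wnt signals from its endothelium, carry most P450 drug metabolism. The last row of hepatocytes borders the bile ducts and is the place where hepatocytes with low levels of biliary genes such as Sox9 and Spp1 have been described. The question was which genes, besides the landmarks, set the rim apart from the periportal cells beside it, and whether the rim changed over the day.

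The rim held between 88 cells (ZT12A) and 357 cells (ZT0B) per library, with 246425 to 921953 UMIs in all. The rim is a range of a score and not a separate class of cells. The lowest score of a rim cell was 1.03 to 1.69 across libraries, and the highest score of an adjacent cell 1.03 to 1.69, with gaps of 0.0001 to 0.0042 between them. Within 0.1 of the boundary lay 1204 cells, among them 18.4% to 30.6% of a library's rim cells. When the score was built from the odd-numbered landmarks alone, a median of 30.2% of its rim cells over the libraries were also rim cells by the even-numbered ones, against 25.2% of its adjacent cells. In ZT0C these shares were 48.2% and 28.3%, but in ZT18B they were 23.3% and 24.7%, so the libraries differed in how far both scores matched. The split between rim and adjacent cells therefore rested on small differences in score. Among the landmarks, which the rule used, Ctsc (cathepsin C) measured 190 CPM in rim and 53.0 CPM in adjacent cells, and Cyp2e1, a pericentral P450, 60.5 and 163 CPM, where CPM is the usual scaling of counts to library size, here to the non-landmark UMIs.

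Rim cells were also somewhat deeper. The median UMIs per rim cell ranged from 1593.5 to 3339 and were higher than in adjacent cells in 8 of 10 libraries, most of all in ZT0C, with 3339 against 2159.5, and ZT12A, with 2518 against 1720. The share of mitochondrially encoded UMIs was higher in rim cells in 8 of 10 libraries, with library medians of 13.4% to 26.4% against 13.1% to 25.9%. Genes detected per cell after thinning every cell to 1000 UMIs were 476.5 to 541 in the rim and 480 to 545 beside it. Each comparison was therefore repeated on thinned cells, and the part of the mitochondrial share in the differences was not tested.

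The 4 genes given as marks of the portal rim were Aldh1b1, a mitochondrial aldehyde dehydrogenase, Cdh1, which encodes E-cadherin of cell junctions, Cib3, a calcium-binding protein, and Ctnnbip1, an inhibitor of beta-catenin. They were proposed from an earlier zone comparison of these libraries, so their levels are a description and no test is given for the zone. In 8 equal layers of the score, all of them climbed from the pericentral end to the rim. Aldh1b1 rose from 2.12 CPM in layer 1 to 103 in layer 7 and 124 in layer 8, and Cdh1 from 1.84 to 117 and 129. Cib3 went from 3.62 to 75.5 and 81.5 CPM, and Ctnnbip1 from 2.56 to 47.4 and 54.7. The step from layer 7 to the rim was a factor of 1.08 (Cib3) to 1.20 (Aldh1b1), small beside the climb before it. The markers thus marked the portal end of the axis, with no sharp border at the rim.

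**Figure D1:**
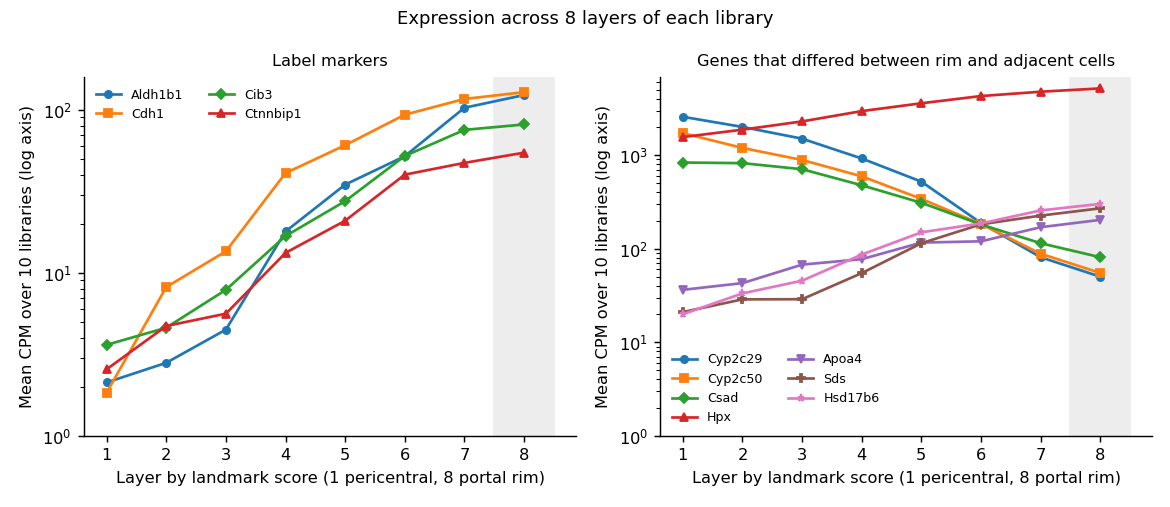
Mean CPM over 10 libraries (log axis) in 8 equal layers of the landmark score, from pericentral (1) to the portal rim (8, shaded), for the label markers (left) and for genes that differed between rim and adjacent cells (right). The 4 markers climb along the axis and level off towards the rim, while Cyp2c29, Cyp2c50 and Csad decline through every layer.

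Per library, Aldh1b1 measured 90.4 to 194 CPM in the rim (median 112) and 38.0 to 115 CPM in adjacent cells (median 87.9). It was higher in the rim in 10 of 10 libraries, although the ranges overlapped; the log2 difference was 0.54 ± 0.085 (SE, n = 10). Cdh1 lay between 71.6 and 195 CPM (median 113) in rim and between 56.6 and 161 CPM (median 122) in adjacent cells. Its log2 difference was 0.25 ± 0.079 (SE), with 8 of 10 libraries higher in the rim and ZT12C and ZT18B lower. Cib3 spanned 37.2 to 138 CPM in the rim and 20.5 to 125 CPM beside it, with a log2 difference of 0.31 ± 0.10 (SE) and 9 of 10 libraries higher. For Ctnnbip1 the ranges were 34.7 to 80.2 and 28.3 to 71.8 CPM and the log2 difference 0.13 ± 0.12 (SE), close to its error. On thinned cells the log2 differences were 0.33 for Aldh1b1, 0.12 for Cdh1, 0.34 for Cib3 and 0.15 for Ctnnbip1. Of the 4, only Aldh1b1 stood above its neighbours in every library.

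**Figure D2:**
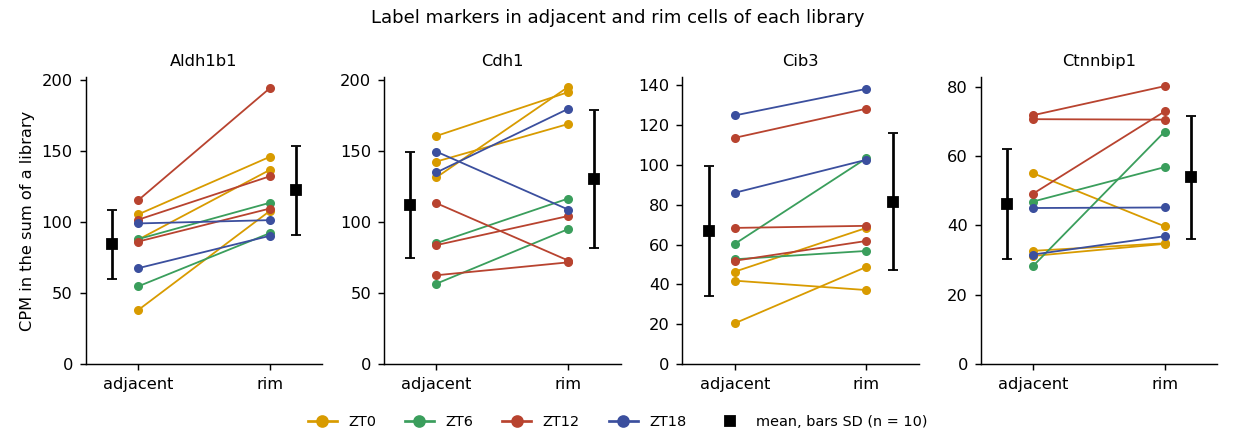
CPM of the 4 label markers in the adjacent and rim cells of each library; a line joins both sums of 1 library, colours give the time of day, and squares with bars are the mean and SD over 10 libraries. All 10 lines rise for Aldh1b1, while lines of Cdh1, Cib3 and Ctnnbip1 rise or fall.

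Few single cells carried a marker. With cells thinned to 1000 UMIs, Aldh1b1 was detected in 9.16% of rim cells (95% Wilson interval 8.05% to 10.4%), 6.97% of adjacent cells (6.21% to 7.82%) and 0.348% of the 2302 cells of the most pericentral layer. Unthinned, the shares were 21.5%, 14.3% and 0.652%. For Cdh1 the thinned shares were 12.5%, 11.1% and 0.174%, with overlapping intervals for rim and adjacent cells. The pericentral share is the background of the measurement. The intervals cover counting error over cells only. Between 34.8% and 62.6% of a library's rim cells had no UMI of any of the 4 genes, and 1.91% to 6.92% had UMIs of 3 or 4.

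Other cell types were followed by their markers. The 9 cholangiocyte markers in the files summed to 5.70 to 56.4 CPM per library (median 25.8), against 3.57 to 51.9 (median 17.8) in adjacent cells, and were higher in the rim in 9 of 10 libraries. Most of this was Sox9 (142 of 188 UMIs), a transcription factor shared by ducts and portal hepatocytes. The keratins that define duct cells had 2 UMIs (Krt7) and 1 UMI (Krt19) in the 2292 cells, Epcam had 1 and Ehf 0. Summed endothelial markers reached 0 to 16.7 CPM in the rim and were lower there than beside it in 8 of 10 libraries. Macrophage markers reached at most 5.64 CPM and lymphocyte markers 1.13 CPM. Stellate and fibroblast markers summed to 4.09 to 25.7 CPM and cycling genes to 5.93 to 49.1 CPM in the rim, against 9.37 to 44.3 and 5.21 to 28.1 CPM beside it. The erythroid list was the highest, with 62.6 to 87.0 CPM in the rim and 49.9 to 116 CPM beside it, and 408 of its 424 rim UMIs were Alas2, an enzyme of haem synthesis. Albumin mRNA was found in 100% of rim cells. The part of the cholangiocyte markers alone in the differences was not tested, and a comparison without cells that carried markers of other cell types is given below.

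Between rim and adjacent cells, 38 of 6233 genes differed in the quasi-likelihood test of edgeR at an adjusted p (Benjamini-Hochberg) under 0.05 (0.61% of the genes tested), with the library as a block and the landmarks removed. In the rim 12 genes (0.193%) were higher, a count that includes the marker Aldh1b1, for which it is only a description, and 26 (0.417%) were lower. Before adjustment 474 genes lay under 0.05. The differences were small, with a median of 1.24-fold, and 3 of the 38 reached 2-fold, all of them lower in the rim. In DESeq2 21 genes were called, and with cells thinned to 1000 UMIs, and their score taken from the thinned counts, 15 were called, of which 9 were among the 38. Without ZT0C, the library with the widest depth gap, 24 were called, 21 of them among the 38. Cells with a UMI of a marker of another cell type, erythroid and cycling lists aside, were also left out and the rest scored anew. This gave 42 genes called, 18 higher and 24 lower in the rim, 31 of them among the 38.

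Among genes that passed the test and had the same direction in all 10 libraries, 3 other than the markers were higher in the rim. Hsd17b6, a hydroxysteroid dehydrogenase that acts on androgen and retinol metabolites, measured 188 to 541 CPM in the rim (median 265) and 106 to 465 CPM beside it (median 188). The ranges overlapped because libraries differed widely, but within each library the rim was higher, and the fitted difference was 0.35 ± 0.058 on the log2 scale (SE, n = 10; edgeR adjusted p = 2.1e-05). Sds, serine dehydratase, which feeds serine carbon into gluconeogenesis, measured 101 to 666 CPM (median 214) against 83.4 to 436 CPM (median 186), a log2 difference of 0.30 ± 0.063 (edgeR adjusted p = 0.0023). Nnmt, which methylates nicotinamide, measured 136 to 389 CPM (median 204) against 103 to 248 CPM (median 171), a difference of 0.29 ± 0.064 (edgeR adjusted p = 0.0046). All 3 calls were lost on thinned cells, where the log2 differences were 0.29 for Hsd17b6 (edgeR adjusted p = 0.117), 0.32 for Nnmt (0.194) and 0.07 for Sds (0.986). The call of Sds was also lost without ZT12A (edgeR adjusted p = 0.0515).

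The genes that were lower in the rim were led by P450 enzymes of the pericentral side. Because 3 neighbouring Cyp2c genes moved together, with Aldh1b1 opposite, the 250 bases before their RefSeq start sites (GRCm38.p6) are shown, each 5′ to 3′ on the strand of the gene. Cyp2c29 lies on the plus strand at chr19:39286835-39287084, Cyp2c50 on the plus strand at chr19:40089429-40089678, Cyp2c67 on the minus strand at chr19:39649043-39649292 and Aldh1b1 on the plus strand at chr4:45798772-45799021. Capitals mark the letters CAAAGT, the start of the element bound by the hepatocyte factor HNF4A, and the TATA box letters TATAAA, searched on both strands.
Cyp2c29: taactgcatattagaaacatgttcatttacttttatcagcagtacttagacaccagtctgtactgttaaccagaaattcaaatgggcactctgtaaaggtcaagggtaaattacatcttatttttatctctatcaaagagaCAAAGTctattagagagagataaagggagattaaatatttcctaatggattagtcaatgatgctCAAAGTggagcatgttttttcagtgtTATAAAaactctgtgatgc
Cyp2c50: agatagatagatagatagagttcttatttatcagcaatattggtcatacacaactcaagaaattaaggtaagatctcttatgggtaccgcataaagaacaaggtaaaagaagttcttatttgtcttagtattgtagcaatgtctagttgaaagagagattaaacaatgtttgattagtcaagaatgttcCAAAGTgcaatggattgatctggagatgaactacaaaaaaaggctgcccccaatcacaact
Cyp2c67: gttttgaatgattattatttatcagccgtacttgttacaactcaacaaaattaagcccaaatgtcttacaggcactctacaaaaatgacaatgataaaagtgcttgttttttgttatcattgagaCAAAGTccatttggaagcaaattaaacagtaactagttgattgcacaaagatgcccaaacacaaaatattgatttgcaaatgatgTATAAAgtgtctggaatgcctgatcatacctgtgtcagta
Aldh1b1: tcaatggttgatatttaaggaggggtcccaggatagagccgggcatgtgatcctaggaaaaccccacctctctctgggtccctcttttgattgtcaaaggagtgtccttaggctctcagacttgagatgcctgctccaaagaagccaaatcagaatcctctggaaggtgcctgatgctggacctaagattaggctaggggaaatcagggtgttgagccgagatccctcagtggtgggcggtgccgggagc
CAAAGT occurred 2 times before Cyp2c29 and 1 time each before Cyp2c50 and Cyp2c67, and not before Aldh1b1; 12.6% of 32851 RefSeq promoters of this length hold it. TATAAA stood before Cyp2c29 and Cyp2c67, and 12.4% of all promoters hold it. The letters CTTTGAT of the TCF/LEF factors of Wnt signalling were found before Cyp2c29 alone among the 4 (3.21% of all promoters), and CTTTGAA before none of them (4.46%). Before Cyp2c29 the CTTTGAT match lay 119 bases and the first CAAAGT match 109 bases from the start site, without overlap. A match describes the letters and not binding.

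Cyp2c50 measured 27.8 to 134 CPM in the rim (median 44.8) and 43.1 to 249 CPM in adjacent cells (median 106). It was lower in the rim in 10 of 10 libraries, and the fitted log2 difference was -1.15 ± 0.11 (SE; edgeR adjusted p = 8.2e-14). Per library, on the log2(CPM + 1) scale, the difference ran from -2.53 (ZT0C) to -0.13 (ZT18A). Cyp2c29 measured 17.4 to 129 CPM (median 45.6) against 28.1 to 293 CPM (median 82.5), a log2 difference of -1.14 ± 0.11 (edgeR adjusted p = 2.8e-14), again lower in every library. Both genes still had most of their expression far away: the rim held 1.09% of the summed layer levels of Cyp2c50 and 0.641% of those of Cyp2c29. The gap was widest in ZT0C, where Cyp2c50 was 42.4 CPM in rim and 249 CPM in adjacent cells, and without that library the log2 differences were -0.87 for Cyp2c50 and -0.86 for Cyp2c29. On thinned cells they were -0.87 and -1.15, and both calls held. Cyp2c54 and Cyp2c67 were lower in the rim in 9 of 10 libraries, by log2 differences of -1.03 ± 0.16 and -0.83 ± 0.16 (SE; edgeR adjusted p = 6.5e-06 and 0.00053), but thinning gave -0.60 and -0.61 and ended both calls, and the call of Cyp2c67 was lost without ZT0C. Cyp2c genes are near-identical copies, and how reads shared among them were counted is not given in the sources used here, so the split between them is uncertain.

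Csad, the enzyme that leads from cysteine to taurine, measured 31.3 to 158 CPM in the rim (median 75.7) and 53.4 to 244 CPM beside it (median 121). Its log2 difference was -0.75 ± 0.087 (edgeR adjusted p = 2.1e-10), lower in the rim in all 10 libraries and called on thinned cells too (-0.71). Mup11, a major urinary protein from a family of near-identical copies, was lower by a log2 difference of -0.45 ± 0.069 (edgeR adjusted p = 4.0e-06). The sulfotransferase Sult2a8 (-0.21 ± 0.044; adjusted p = 0.0018), the organic anion carrier Slco1a1 (-0.21 ± 0.053; 0.032) and the electron carrier Cyb5a (-0.19 ± 0.041; 0.0041) were lower in every library, by small amounts in the fit. These last 3 lost their call on thinned cells, where the log2 differences were -0.13, -0.20 and -0.10 (edgeR adjusted p = 0.616, 0.441 and 0.81), and Slco1a1 lost it without any of 7 libraries.

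**Figure D3:**
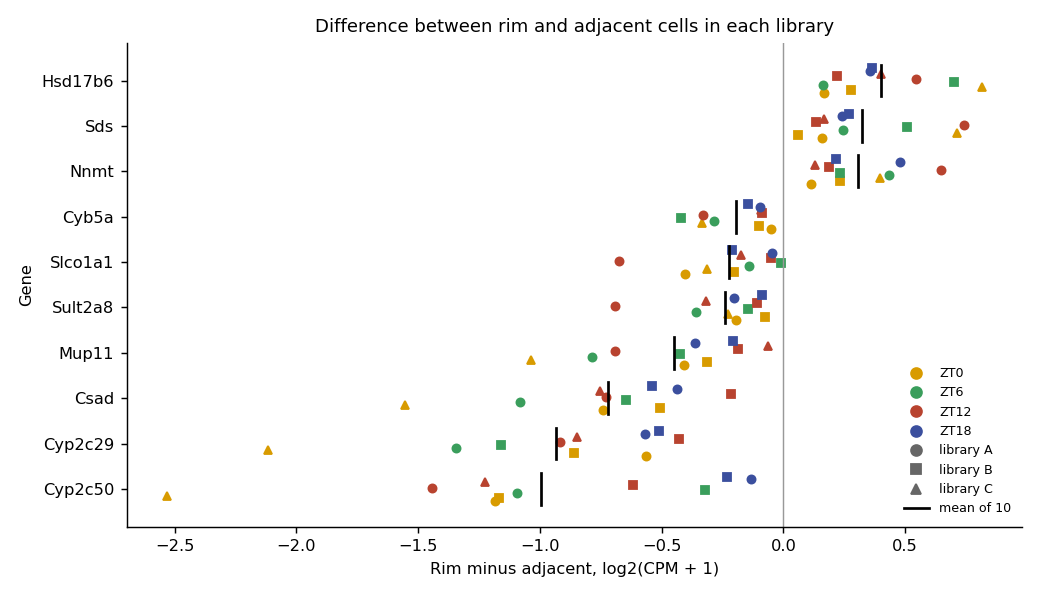
Rim minus adjacent on the log2(CPM + 1) scale for the 10 genes, markers left out, that passed the test and had the same direction in 10 of 10 libraries, 1 point per library (colour: time of day, shape: library letter) and a bar at the mean. All points of Hsd17b6, Sds and Nnmt lie above 0 and those of the other 7 genes below it, with ZT0C farthest out for Cyp2c50, Cyp2c29 and Csad.

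The other genes higher in the rim included Apoa4, an apolipoprotein of lipid-rich particles, at 205 ± 49.0 CPM in rim and 152 ± 34.4 CPM in adjacent cells (SD, n = 10; log2 difference 0.41 ± 0.068, edgeR adjusted p = 1.3e-05; lower in ZT12B alone). On thinned cells Apoa4 had a log2 difference of 0.26 (adjusted p = 0.591). Rufy1 was called higher as well, with a log2 difference of 0.81 to 1.11 when 1 library was left out. It was higher in 8 of 10 libraries, and its call was lost without any of 5 libraries and on thinned cells (0.55). Its level was 9.82 CPM in layer 7 and 17.5 in layer 8, but 20.8 in layer 1. Cyp4v3 and Ugt2b38 were also called higher, and both lost the call on thinned cells (0.06 and 0.17). Mup20, a major urinary protein, was higher by 0.23 ± 0.035 and stayed called on thinned cells (0.16). Hpx, which binds haem in plasma, C3, the central complement protein, and Vtn, vitronectin, were higher by log2 differences of 0.19, 0.14 and 0.19, and none of the 3 stayed called on thinned cells (0.06, 0.07 and 0.05). Lower in the rim were also the antibacterial ribonucleases Ang (-0.51) and Rnase4 (-0.37), which are known to share promoters, the esterase Pon1 (-0.37), the hepcidin copy Hamp2 (-0.48), and the fatty acid genes Fabp1 (-0.20), Scd1 (-0.13) and Elovl3 (-0.44). Nr1i3, the drug receptor CAR, was called lower (log2 -0.62 ± 0.15, edgeR adjusted p = 0.019) with 6 of 10 libraries lower, and its call was lost without any of 6 libraries. Elovl3, Ang and Pon1 lost their calls without ZT0C. Scd1 lost its call without any of 7 libraries. On thinned cells Rnase4, Fabp1 and Scd1 stayed called, and Ang (-0.55), Pon1 (-0.36), Hamp2 (-0.33), Elovl3 (-0.18) and Nr1i3 (-0.22) did not.

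Read by lists, the rim showed few pathway members past the test. The list of xenobiotic enzymes had 8 of 30 measured members lower and 0 higher, where 0.417% of all genes tested were lower and 0.193% higher, with a median log2 difference of -0.0829 against -0.00811 for all genes tested. The 8 were the 4 Cyp2c genes above, Cyp2c70, the glutathione transferases Gsta3 and Gstm1, and Nr1i3, and 2 of the list's members stayed called on thinned cells. Without ZT0C 4 were lower and 1 higher. Of 38 plasma protein genes 3 were higher (Hpx, C3 and Vtn), 0 lower, and 31 had a positive difference (median 0.0502). Over all 6233 genes tested 2948 had a positive difference. Albumin itself had a difference of 0.11 ± 0.033 and missed the threshold (edgeR adjusted p = 0.20). Amino acid breakdown had 1 of 33 higher (Sds; median 0.041), with Tdo2, the tryptophan-degrading enzyme, at 0.08 in 10 of 10 libraries but an edgeR adjusted p of 0.498. Bile acid genes had 2 of 19 lower (the carriers Slco1b2 and Slco1a1), fatty acid synthesis 2 of 17 lower (Elovl3 and Scd1), and apolipoproteins 1 of 18 higher (Apoa4).

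Among the processes for which the periportal side is known, 0 members were called in some lists, which at 0.61% of all genes called is near the background. These were the urea cycle with ammonia handling (0 of 16 measured; Cps1 3224 ± 825 and 3164 ± 863 CPM, SD) and gluconeogenesis (0 of 19; Pck1 at a log2 difference of 0.12 ± 0.036, edgeR adjusted p = 0.154). The urea cycle genes Ass1 and Asl were landmarks and could not be called. Selected by the rule, they measured 1147 and 454 CPM in rim against 930 and 329 CPM in adjacent cells. Junction genes (0 of 23) and protein folding in the endoplasmic reticulum (0 of 25) had none either. Of the 75 genes of the respiratory chain 57 had a negative difference (median -0.0469), and 0 were called. Over all 6233 genes tested 3285 had a negative and 2948 a positive difference. The biliary-like list, which the bile duct border brings into question, had 10 of 20 members measured, 8 with a positive difference (median 0.123) and 0 called. In it Sox9 had a log2 difference of 0.33 (95% interval -0.0048 to 0.67; edgeR adjusted p = 0.658), with 6 of 10 libraries higher. Spp1, osteopontin, ranged from 6.16 CPM (ZT18B) to 160 CPM (ZT0A) in rim cells and from 0 to 205 CPM beside them. Its fitted log2 difference between zones was 0.10 ± 0.14 (SE). Per library, on the log2(CPM + 1) scale, the difference ran from -0.96 (ZT18A) to 4.99 (ZT6B), with 6 of 10 libraries higher. The value of ZT6B rests on 11 UMIs in rim cells and 0 in adjacent cells. The spread between libraries was thus wider than the fitted difference and its SE.

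**Figure D4:**
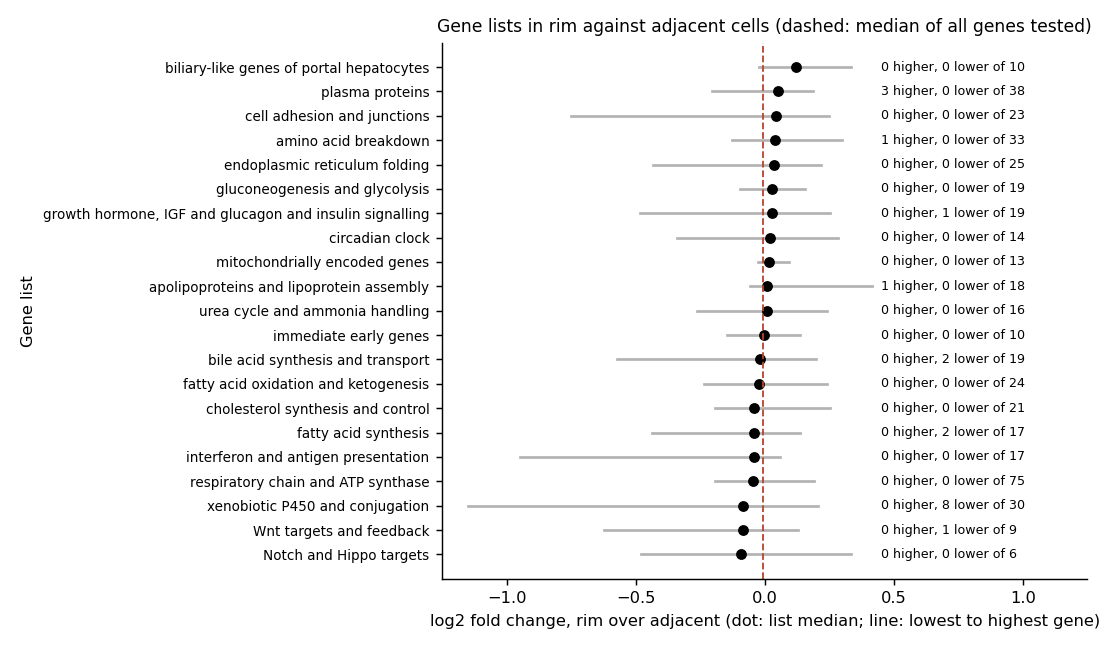
Median (dot) and range (line) of the log2 fold change of rim over adjacent cells in 21 lists of pathways and cell states (markers of the rim label and of other cell types left out), with the number of members called higher or lower by edgeR; the dashed line is the median of all genes tested. Medians of the lists shown lie between the Notch and Hippo list at the bottom and the biliary-like list at the top, and the xenobiotic list holds the most members called.

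Within the rim itself, cells with a score above the rim's median were compared with those below it, as a description since the score orders them. Cyp2c50 measured 41.7 ± 31.1 CPM in the outer and 67.7 ± 34.5 CPM in the inner cells (SD, n = 10) and was lower outside in 10 of 10 libraries. Apoa4 was higher outside in 8 of 10 libraries. Aldh1b1 (128 ± 54.8 and 119 ± 25.1 CPM), Cdh1 (125 ± 50.1 and 132 ± 40.3 CPM), Hsd17b6 and Sds were higher outside in 3 to 6 libraries, so no further climb of these genes was seen inside the rim.

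The rim was then followed over the day. A 24-h rhythm was called for 217 of 6214 genes in rim cells (3.49%) by edgeR's quasi-likelihood test of the cosine and sine, and 970 had an unadjusted p under 0.05. By fitted peak, 83 genes belonged to ZT18 (within 3 h), 56 to ZT12, 48 to ZT0 and 30 to ZT6. The peak-to-trough folds were 2.08 to 113 with a median of 4.67. Without both ZT18 libraries, which also shared an index column of the 10x plate with no other library, 122 genes were called, 98 of them among the 217; at ZT18, time and this column cannot be told apart.

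Several genes of the portal end changed with time in rim cells. No rhythm test was run in adjacent cells, so these courses are not shown to be particular to the rim. Beside the rim Cdh1 measured 161, 143 and 132 CPM at ZT0 and 83.8, 62.5 and 113 at ZT12. Ctnnbip1 in adjacent cells was at 32.7, 55.1 and 31.2 CPM at ZT0 and 71.8, 70.7 and 49.2 at ZT12. Cdh1 in rim cells measured 190, 168 and 196 CPM at ZT0, 117 and 94.8 CPM at ZT6, 104, 71.7 and 73.3 CPM at ZT12, and 180 and 109 CPM at ZT18. The ZT0 libraries were all above those of ZT6 and ZT12, while ZT18 spanned both. The log2 amplitude, the distance from the mean to the peak, was 0.63 and the fitted maximum fell at ZT 22.7 (edgeR adjusted p = 0.017). The call of Cdh1 was lost without ZT12B (adjusted p = 0.0858) and on thinned cells (0.372). Ctnnbip1 measured 34.6, 39.5 and 34.8 CPM at ZT0, 56.9 and 66.9 at ZT6, 80.0, 70.6 and 73.3 at ZT12, and 36.9 and 45.2 at ZT18. The ZT12 libraries were above all others and those of ZT0 and ZT18 were low, and the curve with amplitude 0.58 was highest at ZT 10.1 (edgeR adjusted p = 0.033). The call of Ctnnbip1 sat at the threshold, since leaving out any of the 10 libraries moved its edgeR adjusted p to between 0.0509 and 0.0844, and it was 0.0942 without both ZT18 libraries.

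Sds and Hsd17b6, both higher in the rim, had their peaks close together. Sds measured 201, 133 and 143 CPM at ZT0, 226 and 282 at ZT6, 664, 289 and 492 at ZT12, and 104 and 101 at ZT18. Every ZT12 library was above every library of the other times, and the fitted curve, of amplitude 1.0, was highest at ZT 9.49 (edgeR adjusted p = 0.0078). Beside the rim Sds measured 398, 263 and 436 CPM at ZT12 and 87.6 and 83.4 at ZT18, so adjacent cells showed a similar change. In rim cells the course of Hsd17b6 was as follows. Hsd17b6 measured 188, 224 and 188 CPM at ZT0, 375 and 307 at ZT6, 436, 542 and 290 at ZT12, and 191 and 243 at ZT18. Its curve was highest at ZT 9.94, with amplitude 0.63 (edgeR adjusted p = 0.017), a call lost without ZT12B (0.0822), without ZT18A (0.0556) and on thinned cells (0.0898). Aldh1b1 was not called (amplitude 0.08, edgeR adjusted p = 0.963), nor were Cib3 (0.49, 0.364), Nnmt (0.50, 0.149; called with the index column as a block, 0.0252) and Apoa4 (0.32, 0.368).

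Sox9, the biliary transcription factor, measured 58.1, 40.8 and 34.8 CPM at ZT0, 2.92 and 0 CPM at ZT6, 8.0, 7.60 and 10.5 CPM at ZT12, and 30.0 and 18.5 CPM at ZT18 in rim cells. The libraries of ZT0 and ZT18 were all above those of ZT6 and ZT12. The low values rest on 2 and 0 UMIs at ZT6 and 2, 7 and 3 UMIs at ZT12. Beside the rim Sox9 was at 48.1, 25.6 and 39.0 CPM at ZT0 and 5.74 and 1.89 at ZT6. It was at 5.98, 5.63 and 12.8 CPM there at ZT12 and 10.1 and 10.6 at ZT18. In rim cells the amplitude was 1.85, its size uncertain at such low counts, and the maximum came at ZT 21.5 (edgeR adjusted p = 0.0020). The call in rim cells held without each library in turn, without both ZT18 libraries and on thinned cells. Spp1 was not called (edgeR adjusted p = 0.78), with 159, 20.4 and 7.74 CPM at ZT0 and 6.91 and 6.17 CPM at ZT18, although it was without ZT0A (0.0075). Cldn1, the tight junction protein claudin 1, measured 96.4, 86.7 and 90.3 CPM at ZT0, 45.3 and 33.5 at ZT6, 28.0, 18.5 and 13.97 at ZT12, and 94.5 and 53.5 at ZT18, its maximum at ZT 22.4 being close to that of Cdh1 (edgeR adjusted p = 0.00095).

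**Figure D5:**
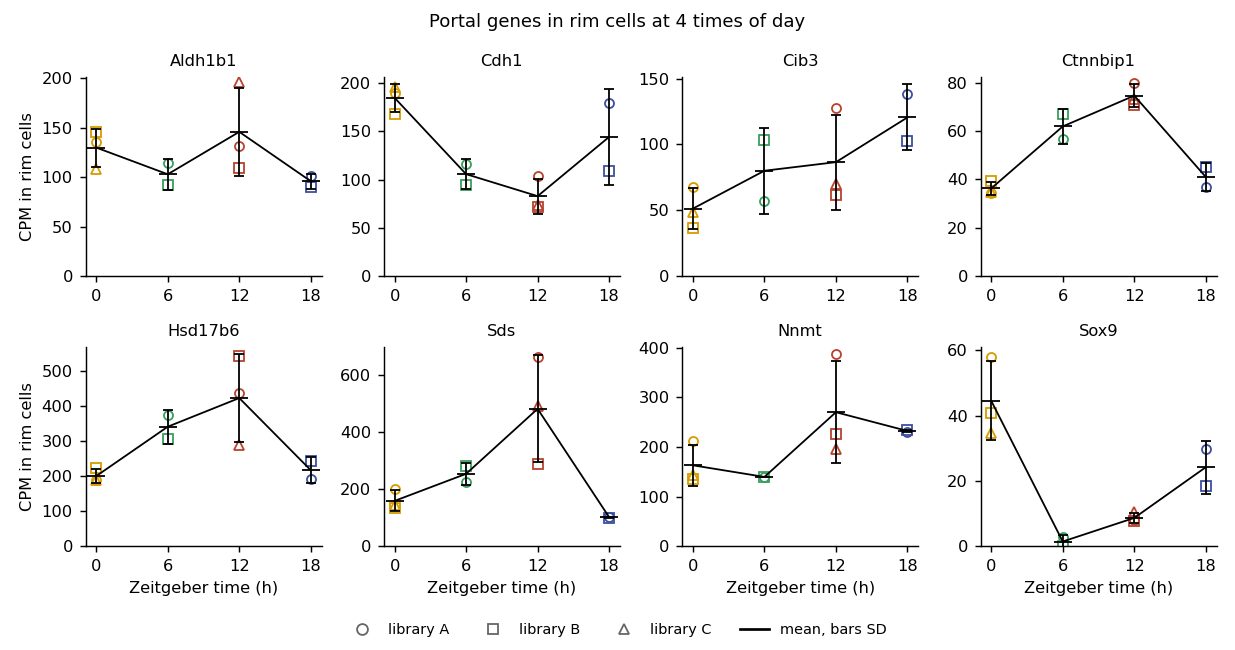
CPM in rim cells at 4 times of day for the label markers, Hsd17b6, Sds, Nnmt and Sox9; open symbols are libraries by letter, and lines with bars are means and SD (n = 3 at ZT0 and ZT12, n = 2 at ZT6 and ZT18). Ctnnbip1, Hsd17b6 and Sds are highest on average at ZT12, Cdh1 and Sox9 at ZT0.

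Metabolic lists of the rim carried rhythmic members too, to be read against 3.49% of all genes. Of 16 measured genes of the urea cycle and ammonia handling 4 were rhythmic. Slc7a2, the arginine carrier, went from 158 ± 54.0 CPM (SD, n = 3) at ZT0 over 407 ± 63.4 (n = 2) at ZT6 to 536 ± 142 (n = 3) at ZT12, and was 122 ± 0.573 (n = 2) at ZT18; its fitted maximum was ZT 9.07 (edgeR adjusted p = 0.00035). Of 19 gluconeogenesis and glycolysis genes 4 were called. Pck1, which commits carbon to glucose, was lowest at ZT18 with 1159 ± 307 CPM (SD) and at ZT0 with 1447 ± 285, and reached 2483 ± 168 by ZT6 and 3509 ± 805 by ZT12; its fitted maximum was ZT 9.29 (edgeR adjusted p = 0.0071). The glucose carrier Slc2a2 peaked at ZT 10.3 (edgeR adjusted p = 0.0072) and Cpt1a, the gate of fatty acid oxidation, at ZT 10.2 (0.00041). Folding genes of the endoplasmic reticulum had 5 of 25 called, all with fitted peaks between ZT 19.6 and ZT 21.4; the chaperone Hspa5 was at 1091 ± 299 CPM at ZT0 and 369 ± 33.2 CPM at ZT6 (SD; edgeR adjusted p = 0.016, lost without ZT6A or ZT6B). Cholesterol genes had 5 of 21 called, among them Insig2, which restrains cholesterol synthesis and was highest at ZT 23.7 (edgeR adjusted p = 0.00017). With library size alone 3 folding genes and 2 cholesterol genes were called, and on thinned cells 3 folding genes and, of the cholesterol genes, Insig2 alone. Plasma proteins (0 of 38), apolipoproteins (0 of 18) and the respiratory chain (0 of 75) had 0 called, and with 3.49% called over all genes nothing is read from these counts. Over all genes the median amplitude was 0.293, and in the urea cycle list 0.21, the folding list 0.407 and the cholesterol list 0.452.

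Of 14 measured clock genes 7 were called in the rim, among them Per1, Per3, Nr1d2, Dbp, Tef and Nfil3, and 7 or 8 without any one library. Nr1d2, a repressor of the clock loop, was at 8.01 ± 0.553, 49.8 ± 8.47, 73.8 ± 6.89 and 13.0 ± 2.03 CPM (SD) in time order from ZT0, and its fitted maximum was ZT 9.92 (edgeR adjusted p = 8.7e-06). Clock, Per2, Cry1, Cry2, Rora, Hlf and Bhlhe40 did not pass, and a miss at this depth does not show that they were flat. By amplitude the leading genes with at least 50 CPM were Mup18, Dbp, Elovl3, Mup4, Mt1, Mt2, Mup17, Serpina3c, Mup12 and Rpl9-ps6. Dbp, a clock output factor, had 132 ± 14.9 CPM at ZT6 and 98.4 ± 46.3 at ZT12, but 2.95 ± 1.95 at ZT0 and 7.94 ± 8.32 at ZT18 (amplitude 3.32). Elovl3, a fatty acid elongase, was at 190 ± 103 CPM at ZT0 and 3.85 ± 5.76 CPM at ZT12 (amplitude 2.99), and the metallothionein Mt1 at 536 ± 337 CPM at ZT12 and 9.75 ± 0.752 CPM at ZT18 (2.67). The 4 Mup genes peaked between ZT 18.7 and ZT 19.2, may share reads among their copies, and include Mup18, which was not called without both ZT18 libraries (edgeR adjusted p = 0.126). With the index column as a block, 6 of these 10 rhythms changed. This block takes up both ZT18 libraries and leaves no ZT18 values to the rhythm, so it cannot tell column from time there. Mup18, Mup12 and Rpl9-ps6 turned their direction, and Mup4 (amplitude 0.35), Mup17 (0.65) and Serpina3c (0.88) were no longer called (edgeR adjusted p = 0.518, 0.142 and 0.105). Dbp, Elovl3, Mt1 and Mt2 stayed called.

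Whether the difference between rim and adjacent cells itself followed the day was tested with zone-by-time terms. Of 6233 genes 0 were called by edgeR, 281 (4.51%) had an unadjusted p under 0.05, and DESeq2 called 0, with 28 unadjusted. The lowest edgeR adjusted p was 0.0762, shared by Spp1 and Cxcl9, an interferon-induced chemokine; they are named after their values were seen. Spp1 was at 59.7 CPM in rim and 23.9 CPM in adjacent cells of ZT6A and at 30.7 and 0 CPM in ZT6B, while at ZT0A it was 160 and 205 CPM. Few cells carried it: the rim held 41 UMIs in 4.64% of 302 cells in ZT6A and 11 UMIs in 2.79% of 179 cells in ZT6B. Some alternatives called 1 or 2 genes, most often Spp1 or Cxcl9. For Hsd17b6 the mean log2(CPM + 1) differences were 0.42, 0.43, 0.39 and 0.36 in time order (edgeR unadjusted p = 0.89). For Cyp2c50 they were -1.63 ± 0.78, -0.71 ± 0.54, -1.10 ± 0.43 and -0.18 ± 0.069 (SD), with an edgeR unadjusted p of 0.0078 and an edgeR adjusted p of 0.998, so a change over time was not called.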

How the data were processed

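Single liver cells in 10 libraries were counted as UMIs per gene, and the authors deposited these raw counts per numbered cell without barcodes, so barcodes shared between libraries could not be counted. Per the submitters' processing notes, Cell Ranger and the builds mm10 and hg19 were used, with no roles or version given; filters on cells and doublets are not given in the sources used here, and no doublet caller was run. The members and gene lists were chosen with earlier results of these data known. From the counts, cells were scored in each library on 16 landmarks, and UMIs of rim and adjacent cells were summed per library. Landmarks were removed before library sizes; genes averaging 10 CPM or more were kept. Sums were fitted with edgeR 4.0.16 in R 4.3.3 (TMM, quasi-likelihood, Benjamini-Hochberg, threshold 0.05), as zone with a library block, as cosine plus sine terms with a period of 24 h in rim cells, and as their interaction with zone. CPM of layers and detection use plain totals. DESeq2 1.42.0, other scalings, filters, rim limits, scores, thinning to 1000 UMIs, blocks and left-out libraries were alternatives. Library UMIs ranged from 1454623 to 7144803. Named genes were those called with 1 direction in all 10 libraries, the largest rhythms, the clock list and, per list, up to 4 members by fold or level; other genes were named from their values. On simulated data with 200 genes changed, the zone test recovered 38.8% of 1.25-fold and 93.9% of 2-fold changes. The rhythm test recovered 7% at a log2 amplitude of 0.5 and 71% at 1. For the difference over time these shares were 22% and 68%, so many changes of this size would be missed. Promoters came from RefSeq (GRCm38.p6), where 28 of the 38 genes called had one.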

Additional observations from a re-analysis of the deposited data

Results flagged for a closer look

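For 14 genes the rim minus adjacent difference, on the log2(CPM + 1) scale, was examined for a library far from the others, and 2 had one. Chance gives about 1 in 20 such groups. Aldh1b1 had a difference of 1.48 in ZT0C, above the other 9 libraries. Sult2a8 had a difference of -0.69 in ZT12A, below the other 9.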

How the results depend on the processing

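Between rim and adjacent cells, 38 genes became 21 with DESeq2, 76 with periportal landmarks alone, 15 on thinned cells and 0 with no replicate block, the library being that block; leaving out 1 library gave 24 (without ZT0C) to 43. The share of calls higher in the rim, 31.6%, became 42.9% with DESeq2, 13.3% on thinned cells and 54.2% without ZT0C. The 217 rhythmic genes became 458 with no filter, 119 at a mean of at least 50 CPM, 143 on thinned cells and 122 without both ZT18 libraries (chosen after seeing the data), and 140 (without ZT18A) to 250 when 1 library was left out. For the difference over time, 0 genes became 2 with library size alone, no filter, the top 6.25%, odd-numbered landmarks or without both ZT18 libraries, and 1 with the top 16.7%, periportal landmarks alone, cells of at least 2000 UMIs or the index column by zone; leaving out 1 library gave 0 to 2. Deviations from the mean of their time correlated at -0.05 to 0.24 between libraries with the same letter (13 pairs, 3 over 0.1). Between libraries with other letters they correlated at -0.14 to 0.05. The 3 pairs over 0.1 were those of ZT0 with ZT12, where pairs with other letters lay at -0.14 to -0.02. These 3 pairs also share an index column, so letter and column cannot be told apart there. The other 10 pairs were not over 0.1. ZT6 and ZT18 have 2 libraries each, whose deviations mirror each other, which limits what their pairs can show. Letters were not taken as pairing in the main fit. A replicate block by letter gave 317 rhythmic genes and 0 over time. With the index column as a block, 291 rhythmic genes were called, only 144 of them among the 217. Among the 71 rhythm genes followed, 4 changed direction: Mup18 to an amplitude of 1.03, Mup12 to 0.68, Rpl9-ps6 to 0.27 and Cyp7b1 to 0.58. The calls of Mup4, Mup17 and Serpina3c were among those lost. This block takes up both ZT18 libraries, which share their column with no other library, and leaves no ZT18 values to the rhythm. It therefore cannot tell a column effect from a rhythm that peaks near ZT18, and the cause was not tested. Of 1103 values of 41 genes between zones 855 were counted as unchanged, and of 2032 values of 71 rhythm genes 1692 were. Unchanged meant the same side of the threshold, except for the 4 markers between zones. For these it meant a log2 difference within 1 SD over libraries of the main value, whether or not the threshold was crossed. ZT12A, with 88 rim cells, limits depth most.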
